A study of Mus musculus with 12 samples.

Results

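Hair follicle bulge transcription factors and the bulge keratin Krt24 were followed through 5 sorted fractions of mouse back skin. The 7 genes are Sox9, Foxc1, Vdr, Lhx2, Nfatc1, Tcf7l1 and Krt24, of 18193 genes that a whole-genome expression array measured by probe sets of 1 gene each. They were chosen as genes known from the bulge, and Sox9, Foxc1 and Vdr were set against Lhx2 and Krt24 because of their levels on these same arrays. For those 5 genes the values are therefore a description with no test, while Nfatc1 and Tcf7l1 were tested together with all other genes. The 7 genes and the gene lists used below were chosen with earlier results of these data known, and the adjusted p-values do not account for that choice. Of the 12 arrays, 3 each belong to the groups BL LRC and BL non-LRC, and 2 each to the SL LRC group, the SL non-LRC group and the GL group. BL, SL and GL are read as basal, spinous and granular layer and LRC as label-retaining cell, from what is known of the study, since the labels give the abbreviations alone. All 5 groups came from mice with the same 4 transgenes. Of these, K5-tTA switches on pTRE-H2B-GFP, a green nuclear label, in keratin 5 expressing cells until doxycycline stops it, while K14-CreER, active with tamoxifen, opens the Rosa-tdTomato reporter in keratin 14 expressing cells. The mice ate food with 1 g/kg doxycycline for 2 weeks, received tamoxifen once at 75 mg/kg, and were killed 1 week later in the second telogen, the resting phase of the hair cycle. Label retention therefore marks cells of the keratin 5 lineage that divided little over those weeks, and no group lacks the transgenes or either drug.

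The bulge is the part of the resting follicle below the sebaceous gland where slowly cycling stem cells sit. Sox9 is needed to form and keep that stem cell pool, Lhx2 is a LIM homeodomain factor that holds its cells in the follicle fate, and Nfatc1 and Foxc1 are known for keeping them quiescent. Tcf7l1, also called Tcf3, represses Wnt target genes when beta-catenin is absent. Vdr, the vitamin D receptor, is needed for hair cycling after the first follicles have formed, and Krt24 is a type I keratin listed among bulge markers.

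All 7 genes were above the background floor on all 12 arrays, except Krt24 on SL non-LRC 2. The floor is the level under which 95% of 27 bacterial control probe sets lay, and it fell between 22.4 and 42.6 intensity units. Genes above it made up 68.1% to 78.4% of all genes per array. The arrays form 2 sets by BioB, a bacterial transcript used as a hybridisation control. Both BL arrays numbered 1 and both arrays of SL non-LRC averaged 495 ± 29.5 units (SD, n = 4) and the other arrays 3370 ± 305 units (SD, n = 8), so that within SL the array set and the label cannot be told apart. BL LRC 1 and BL non-LRC 1 also lacked signal of Y-linked genes, which every other array had. The array set varies within a group in BL alone, so a term for it in the model rests on the BL arrays. Such a term carries other differences between those BL arrays into SL. With it, 3 Y-linked genes were called lower in SL LRC, at a median log2 difference of -7.71, against 0.07 and 0 calls without it. SL values and calls with this term are given with that limit. As a check of the fractions, the summed signal of 7 interfollicular basal markers was 108786 to 114329 units in BL LRC, 84754 to 112265 in BL non-LRC, 80246 to 86390 in SL LRC, 78285 to 78353 in SL non-LRC and 67789 to 70351 in GL. Lor, which marks granular cells, was above the floor on all 12 arrays, at 3476 and 1255 units in GL, against 286 to 1135 units in SL non-LRC and 427 to 666 in SL LRC. Flg, another granular marker, measured 517 and 271 units in GL, against 23.6 and 46.7 in SL non-LRC and 87.5 and 125 in SL LRC, so neither marker was limited to GL. The summed signal of 8 suprabasal markers, these 2 among them, did not follow the layers. It was 53907 to 64900 units in BL LRC, 37477 to 44784 in BL non-LRC, 75688 to 82169 in SL LRC, 43393 to 53380 in SL non-LRC and 56928 to 59340 in GL.

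The stretches upstream of 4 of the genes are shown because the genes differ in base composition there as well as in their levels. Each is the 250 bases before a start listed in RefSeq's sequence table, build GRCm38.p6, written 5′ to 3′ on the strand of the gene. Matches on either strand to the GC box, the NFAT core and the nuclear receptor core, spelled out after the sequences, are in capitals.
Foxc1, chr13:31806396-31806645, plus strand: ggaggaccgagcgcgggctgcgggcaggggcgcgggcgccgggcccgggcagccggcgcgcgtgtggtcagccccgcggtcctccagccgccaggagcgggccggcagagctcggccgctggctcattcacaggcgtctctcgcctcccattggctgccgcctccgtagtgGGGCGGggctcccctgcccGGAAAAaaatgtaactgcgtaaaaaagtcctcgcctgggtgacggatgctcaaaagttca
Vdr, chr15:97908297-97908546, minus strand: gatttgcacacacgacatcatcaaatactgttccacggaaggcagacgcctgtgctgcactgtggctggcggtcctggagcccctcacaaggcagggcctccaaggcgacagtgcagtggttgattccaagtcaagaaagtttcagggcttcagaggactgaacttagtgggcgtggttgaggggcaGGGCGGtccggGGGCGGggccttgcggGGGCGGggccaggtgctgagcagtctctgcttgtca
Lhx2, chr2:38339031-38339280, plus strand, the upstream one of 2 starts in the table: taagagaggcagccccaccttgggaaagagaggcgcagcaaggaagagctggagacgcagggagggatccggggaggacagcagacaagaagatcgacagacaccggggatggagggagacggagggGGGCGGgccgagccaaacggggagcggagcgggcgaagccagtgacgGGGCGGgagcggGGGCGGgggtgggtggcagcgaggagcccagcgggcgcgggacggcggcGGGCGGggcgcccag
Krt24, chr11:99285263-99285512, minus strand: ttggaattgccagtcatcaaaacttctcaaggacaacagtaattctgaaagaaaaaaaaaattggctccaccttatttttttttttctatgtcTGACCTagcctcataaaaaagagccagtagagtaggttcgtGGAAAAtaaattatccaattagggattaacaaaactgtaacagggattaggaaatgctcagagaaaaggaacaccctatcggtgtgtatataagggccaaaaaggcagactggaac

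The annotated Lhx2 gene begins at position 38339271, inside the stretch shown for it. Such a stretch was taken for 5 of the 7 genes, the fifth being Tcf7l1 on chromosome 6. Sox9 had no entry in the sequence table, and Nfatc1 was left out. G and C made up 70.8% of the Foxc1 stretch, 61.2% of that of Vdr, 72.8% of that of Lhx2 and 73.6% of that of Tcf7l1. The Krt24 stretch had 36.8%, against a median of 52.4% over 32851 promoters. GGGCGG, the GC box, occurred 3 times before Vdr, 4 times before Lhx2, 2 times before Tcf7l1 and 1 time before Foxc1. It did not occur before Krt24, and 32.7% of all promoters hold it. GGAAAA, the core that NFAT proteins bind, occurred 1 time before Foxc1 and 1 time before Krt24, and 20.4% of all promoters hold it. AGGTCA, a core within the binding sites of nuclear receptors and not a full site, was found before Krt24 alone among the 5 genes. It is held by 14.0% of promoters. The short LIM homeodomain core ATTA occurred 5 times before Krt24 and in none of the other 4 stretches, and 54.9% of promoters hold it. Another 5 motifs had no exact match in these stretches. They were the TATA box TATAAA, held by 12.4% of promoters, the SOX core ACAAT (27.7% of promoters), the forkhead core GTAAACA (3.17% of promoters), the longer LIM homeodomain core TAATTA, which contains the short one (4.84% of promoters), and the TCF core CTTTGA (13.8% of promoters). Exact letters alone were searched, so variants, such as TATATAAG near the end of the Krt24 stretch, were not counted. These matches are descriptions of letters in a window.

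Sox9 was lower in label-retaining cells of both layers and highest in GL. Its intensity was 502, 617 and 551 units on the BL LRC arrays, against 1701, 2326 and 2973 on the BL non-LRC arrays. In SL it was 1205 and 1172 units in LRC, against 6591 and 6081 in non-LRC. GL held 11387 and 10946 units. The highest LRC array of each layer lay below the lowest non-LRC array of the same layer, and every neighbouring pair in the order BL LRC, SL LRC, BL non-LRC, SL non-LRC, GL was separate from the next. The log2 difference between LRC and non-LRC was -2.04 ± 0.19 in BL and -2.41 ± 0.23 in SL (moderated SE, n = 3 and 3, and 2 and 2), and with the array set as a term in the model the SL value was -2.84. Within the pairs of equal replicate number in BL it was -1.76 for the low-BioB pair and -1.92 and -2.43 for the others. GL exceeded the mean of the SL groups by 2.03 ± 0.20 on the log2 scale, and stood 9.40-fold above SL LRC and 1.76-fold above SL non-LRC. In bulk samples of this kind, fewer cells of a type and less RNA per cell cannot be told apart.

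Foxc1, a forkhead factor, had the widest gap between label-retaining and other cells among the 7 genes in BL. Its intensity was 140, 321 and 201 units in BL LRC, against 1530, 1291 and 3281 units in BL non-LRC. In SL it was 761 and 720 units in LRC, against 7078 and 5081 units in non-LRC. Label-retaining arrays were lower without overlap in both layers, by -3.16 ± 0.32 in BL and -3.02 ± 0.39 in SL on the log2 scale. With the array set as a term the SL difference was -3.66, and within the 3 BL pairs it was -3.45, -2.01 and -4.03. The GL arrays, at 5433 and 5378 units, fell between the 2 SL non-LRC arrays, so GL and SL non-LRC overlapped, while all other neighbouring groups were separate. SL LRC stood 3.56-fold above BL LRC and SL non-LRC 3.22-fold above BL non-LRC, and neither pair overlapped.

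Vdr showed the order of groups seen in Foxc1, over a narrower range. The receptor gave 1418, 1491 and 1421 units in BL LRC, against 2713, 1916 and 2574 units in BL non-LRC. In SL it gave 1823 and 1588 units in LRC, against 4107 and 3979 units in non-LRC. GL, at 3387 and 4290 units, enclosed both SL non-LRC arrays. The LRC arrays were lower without overlap in each layer, by -0.72 ± 0.17 in BL and -1.25 ± 0.20 in SL on the log2 scale. The 3 BL pairs gave -0.94, -0.36 and -0.86, and the array set as a term gave -1.12 in SL. As in Foxc1, all neighbouring groups other than SL non-LRC and GL were separate.

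**Figure D1:**
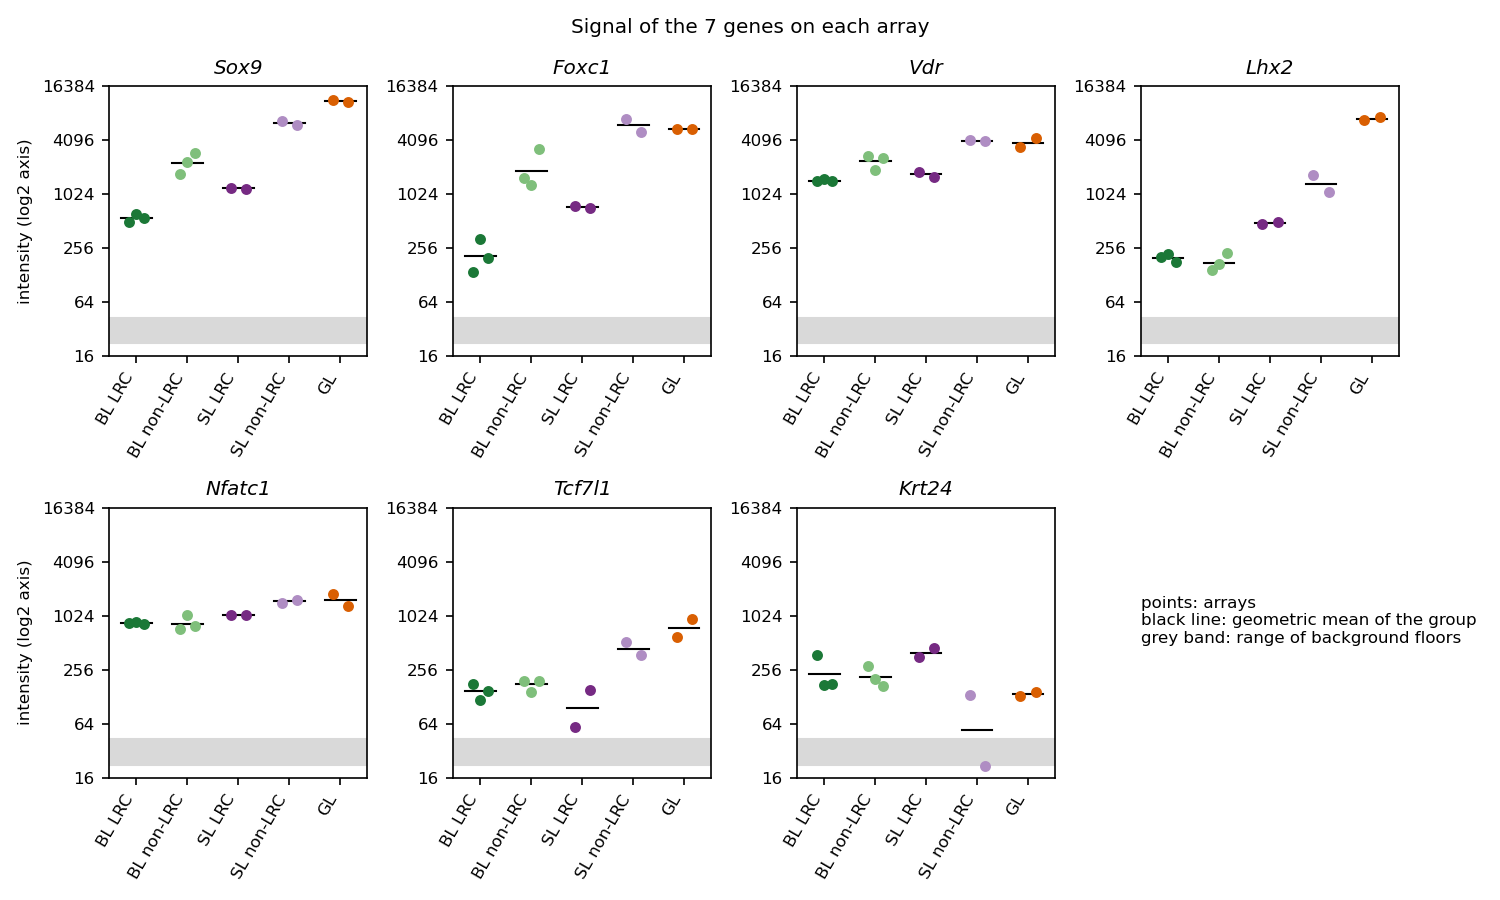
Intensity of each of the 7 genes (log2 axis) on each array, by sorted group, with points for arrays, a black line for the geometric mean of the group and a grey band for the range of the background floors (22.4 to 42.6 units). Sox9, Foxc1 and Vdr are lower on every LRC array than on any non-LRC array of the same layer, Lhx2 reaches 6783 and 7362 units in GL, against 145 to 224 units in BL non-LRC, and the mean of Krt24 is highest in SL LRC.

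Lhx2 did not share this separation in BL. It measured 205, 220 and 179 units in BL LRC, against 145, 168 and 224 units in BL non-LRC, and the arrays overlapped (log2 difference 0.19 ± 0.25). Centring each array on its median turned the sign of this small difference, to -0.05. In SL it measured 472 and 494 units in LRC, against 1663 and 1075 units in non-LRC, a log2 difference of -1.47 ± 0.30 without overlap. That SL difference was -1.16 without SL non-LRC 1 and -1.78 without SL non-LRC 2. The label differences in the 2 layers were therefore 0.19 and -1.47 for Lhx2, beside -2.04 and -2.41 for Sox9, and the difference between layers is given here without a test.

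Across layers Lhx2 had the widest range of the 7 genes. GL held 6783 and 7362 units, 5.28-fold above SL non-LRC and 14.6-fold above SL LRC. Every SL array was above every BL array, with a log2 difference of 2.10 ± 0.19, and both GL arrays were above every SL array, with a difference of 3.14 ± 0.26. Between BL LRC and GL the step was 35.2-fold for Lhx2, 20.1-fold for Sox9, 26.0-fold for Foxc1 and 2.64-fold for Vdr. Fold values compare 1 probe set with itself across groups and set no gene's level against another's.

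Krt24 ran the other way in SL. It measured 349 and 442 units in SL LRC, against 135 and 21.7 units in SL non-LRC, and the second of these was below that array's floor of 25.7. The log2 difference was 2.86 ± 0.67 without overlap, but it was 1.54 without SL non-LRC 2, 4.18 without SL non-LRC 1 and 3.71 with the array set as a term, so its size rests on 1 array near background. In BL it measured 376, 171 and 178 units in LRC, against 278, 201 and 168 units in non-LRC, which overlapped (0.10 ± 0.54, and -0.27 without BL LRC 1). GL held 129 and 144 units, below every BL array and every SL LRC array and overlapping with SL non-LRC. SL LRC and BL LRC overlapped as well, because BL LRC 1 lay between the SL LRC arrays.

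Nfatc1, a calcium-dependent factor that calcineurin activates, varied over the narrowest range of the 7 genes. It measured 836, 866 and 833 units in BL LRC, against 722, 1038 and 774 units in BL non-LRC. In SL it measured 1025 and 1048 units in LRC, against 1418 and 1535 units in non-LRC, and GL held 1779 and 1316 units. The label differences did not pass in BL (0.02 ± 0.20, limma adjusted p = 0.989) or in SL (-0.51 ± 0.24, adjusted p = 0.292), although the SL arrays did not overlap. SL exceeded BL by 0.56 ± 0.15 (adjusted p = 0.0450), but 9 of the 12 fits that leave out 1 array did not call it. Those 9 left out any of the 3 BL LRC arrays, BL non-LRC 1 or 3, or any of the 4 SL arrays, and gave adjusted p-values of 0.0730 to 0.148. GL and SL did not differ past the threshold (0.31 ± 0.21, adjusted p = 0.456).

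Tcf7l1 resembled Lhx2 in BL and Sox9 in SL. It measured 178, 118 and 147 units in BL LRC, against 193, 145 and 192 units in BL non-LRC, and the arrays overlapped (-0.26 ± 0.39, limma adjusted p = 0.871). In SL it measured 58.9 and 153 units in LRC, against 524 and 368 units in non-LRC. This fall of -2.21 ± 0.48 on the log2 scale passed (adjusted p = 0.0125). The call was lost with the array set as a term (adjusted p = 0.173), without SL LRC 1 (0.167), without SL non-LRC 1 (0.111) and without SL non-LRC 2 (0.0654). The difference between the label effects of the 2 layers was -1.95 and did not pass (adjusted p = 0.537). GL, at 597 and 948 units, rose above SL by 1.88 ± 0.41 (adjusted p = 0.00820), which was lost without GL 2 (adjusted p = 0.135).

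Counted over the 7 genes, 3 were lower in BL LRC without overlap of arrays and none was higher, where 7.67% of all genes were lower in this way and 8.76% higher. In SL, 6 of 7 were lower in LRC without overlap and Krt24 was higher, where the backgrounds were 24.2% and 23.4%, since 2 arrays against 2 often separate. Lhx2 alone had every SL array above every BL array, as did 2.13% of genes. Sox9, Lhx2 and Tcf7l1 had both GL arrays above all SL arrays, as did 13% of genes. By adjusted p, which was read only for the pair Nfatc1 and Tcf7l1, 1 passed in SL, 1 in SL vs BL and 1 in GL vs SL, beside 4.19%, 5.03% and 8.3% of all genes, and neither passed in BL, where 1.53% did. The median log2 difference of the 7 genes was -0.26 in BL, -1.47 in SL, 0.56 in SL vs BL and 1.36 in GL vs SL. Over all genes these medians were 0.05, 0.00, 0.00 and -0.03. The choice of 5 of the genes used these contrasts, so the counts describe them and nothing is read from them.

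**Figure D2:**
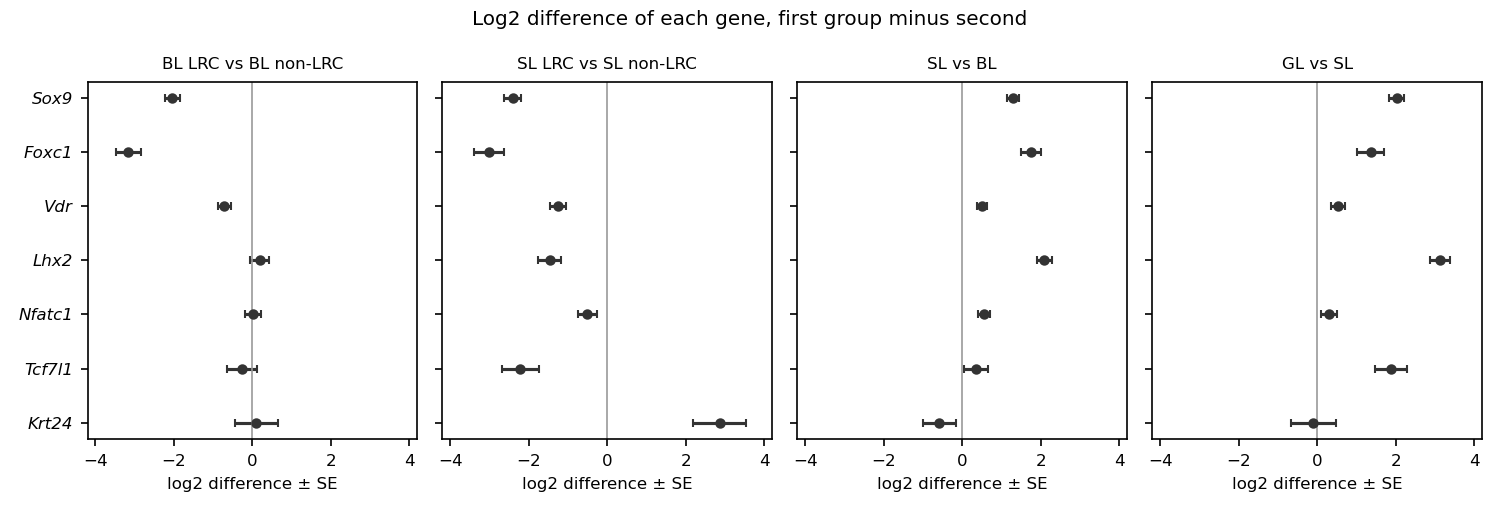
Log2 difference of each gene in the 4 comparisons, first group minus second, with bars for the moderated SE. In BL the values of Sox9, Foxc1 and Vdr lie at -2.04, -3.16 and -0.72 while the other 4 lie between -0.26 and 0.19, and in SL Krt24 alone is positive, at 2.86.

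The genes' other probe sets bear on these values. The second probe sets of Sox9, Foxc1 and Vdr gave -2.43, -2.86 and -0.81 in BL and -1.98, -2.58 and -1.45 in SL, each without overlap. The third Sox9 probe set was above background on 6 of 12 arrays and its groups overlapped in all 4 comparisons. The second Tcf7l1 probe set gave -1.92 in SL and 2.64 in GL vs SL, again without overlap. The 5 Nfatc1 probe sets disagreed. In BL 4 of the 5 overlapped between LRC and non-LRC and the fifth was higher in LRC without overlap, with log2 differences of -0.15 to 1.04. In SL vs BL they ranged from -0.18 to 0.56, and the mean of all 5 gave 0.14 with an adjusted p of 0.816. Lhx2 and Krt24 had 1 probe set each, so no second measurement exists for the pair set against the others.

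Genes whose profiles lay closest to each member were found by the root mean square difference of mean-centred log2 values over the 12 arrays, among 13613 genes above background on 6 or more arrays. Closest to Sox9 were Tm4sf1, a tetraspanin-like membrane protein gene (0.298), Alcam, a cell adhesion molecule (0.353), and Endod1 (0.383), and Foxc1 was the fifteenth at 0.580. Tm4sf1 measured 43.9, 43.1 and 61.7 units in BL LRC, against 194, 297 and 410 in BL non-LRC, and 1034 and 852 in GL. Closest to Foxc1 were Nebl (0.429), Adgrl2 (0.484) and Akap2 (0.516), with Sox9 in place 4. Closest to Vdr were Efnb1, an ephrin ligand (0.206), Cdc42ep4 (0.213) and Zbtb7c (0.237).

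Lhx2 had other neighbours. They were Pinlyp (0.501), Nfe2l3 (0.561) and Hoxc13, a homeobox factor of the hair shaft (0.574). Hoxc13 measured 67.9, 49.5 and 53.3 units in BL LRC and 2217 and 2736 units in GL, and Sox9 stood in place 138 from Lhx2. Nearest to Tcf7l1 were Cntfr (0.361), Pdk2 (0.381) and Pfn2 (0.386), and nearest to Nfatc1 were Stx17 (0.165), Cstb (0.166) and Grina (0.170). Nearest to Krt24 were Ppp1r9a (0.496), Sarm1 (0.500) and 4930567K12Rik (0.517), whose signals on SL non-LRC 2 were 2.91, 11.8 and 18.8 units, all below that array's floor like Krt24 itself. These distances describe 12 arrays that share group structure and carry no test.

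Runx1 was the one of 19 other genes known from the bulge that was called in both label comparisons. Of the 19, 1 fell in BL LRC, where 1.23% of all genes fell, and none rose. This was Runx1, a factor that promotes stem cell activation (log2 difference -1.94 ± 0.20, limma adjusted p = 4.4e-05). In SL LRC 4 fell and none rose, beside 2.7% of all genes that fell and 1.49% that rose. They were Runx1 (-1.78 ± 0.25, limma adjusted p = 5.5e-04), Foxp1, which restrains stem cell division (-0.92 ± 0.17, adjusted p = 0.00561), Tcf7l2, a paralog of Tcf7l1 (-1.16 ± 0.23, adjusted p = 0.00808), and Nfib (-0.83 ± 0.21, adjusted p = 0.0359). With the array set as a term Runx1 and Foxp1 passed and Tcf7l2 (adjusted p = 0.162) and Nfib (0.110) did not. Foxp1 lost its call without SL LRC 2 or SL non-LRC 2, Tcf7l2 without SL LRC 1 or SL non-LRC 2, and Nfib without SL LRC 1, SL LRC 2 or SL non-LRC 2, while Runx1 passed in every fit without 1 array.

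Between layers the other bulge genes split. In SL relative to BL, where 2.83% of all genes rose and 2.2% fell, Runx1 (0.85 ± 0.16, limma adjusted p = 0.00347) and Tbx1, a T-box factor (1.35 ± 0.28, adjusted p = 0.00705), rose. Npnt, the matrix protein nephronectin (-0.97 ± 0.15, limma adjusted p = 7.63e-04), Postn, the matrix protein periostin (-1.53 ± 0.27, adjusted p = 0.00259), and Hopx (-0.78 ± 0.18, adjusted p = 0.0165) fell. The Hopx call was lost without SL non-LRC 2 and without either SL LRC array. In GL relative to SL 6 rose, beside 4.39% of all genes, among them Runx1 (1.53 ± 0.21, adjusted p = 2.2e-04), Tbx1 (2.28 ± 0.37, adjusted p = 8.74e-04) and Foxp1 (0.73 ± 0.15, adjusted p = 0.00506, lost without GL 2). Npnt (-1.51 ± 0.20, limma adjusted p = 1.55e-04) and Krt15, an abundant keratin of the bulge (-0.61 ± 0.14, adjusted p = 0.0114, lost without GL 1 or SL LRC 1), fell, beside 3.91% of all genes. Of the 8 GL calls, 3 stood in every fit without 1 array. The median log2 difference of the list was -0.05 in BL, -0.36 in SL, 0.32 in SL vs BL and 0.83 in GL vs SL.

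Defining bulge markers differed in where they were detected. Cd34, the surface marker used to sort bulge cells, was above background on 4 of 12 arrays, at 48.0 and 43.6 units in SL LRC and 97.1 and 54.4 units in GL. Lgr5, a receptor of the lower bulge and hair germ, measured 740 and 1281 units in GL and 262 units or less on every other array. Its layer differences did not pass (SL vs BL 2.63 ± 1.06, limma adjusted p = 0.215; GL vs SL 2.81 ± 1.43, adjusted p = 0.282). Krt15, Nfix, Hopx and Nfib had the highest mean signals of the list. Krt15 measured 31185, 30028 and 26965 units in BL LRC, against 25800, 30096 and 22292 in BL non-LRC, so it did not separate the label groups (adjusted p = 0.673).

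**Figure D3:**
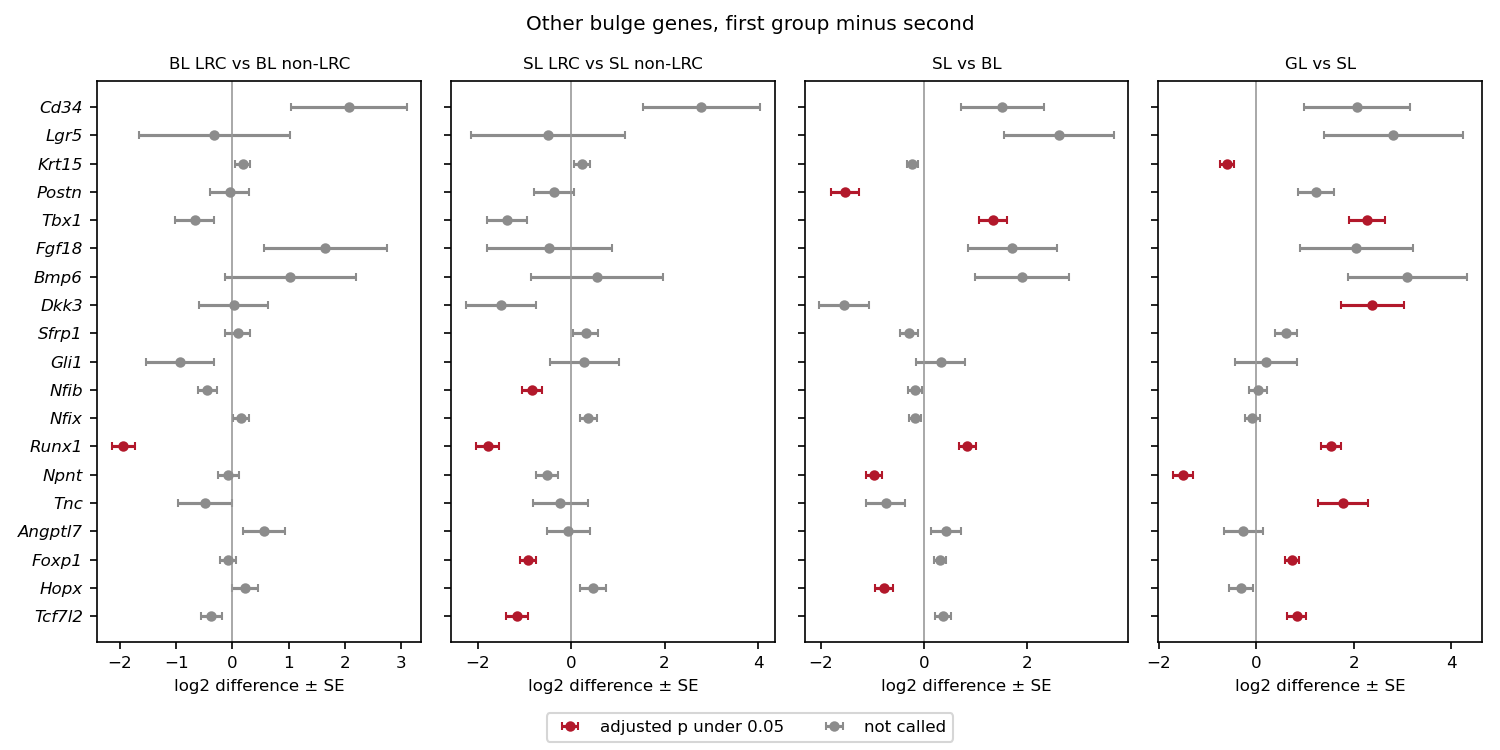
Log2 difference with moderated SE for 19 other bulge genes in the 4 comparisons, first group minus second, red where the adjusted p was under 0.05. Runx1 is red in all 4 panels, at -1.94, -1.78, 0.85 and 1.53, and Krt15 lies near 0 in both label comparisons.

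Of 17 genes for partners and readouts of these factors, Tle1, a Groucho corepressor, was the only 1 called in a label comparison. It fell in BL LRC (-1.56 ± 0.30, limma adjusted p = 0.0113, lost without BL LRC 3 or BL non-LRC 3) and in SL LRC (-1.52 ± 0.37, adjusted p = 0.0251, lost without any 1 of the 4 SL arrays and, at 0.207, with the array set as a term). In SL vs BL Tle1 and Tle3 rose, beside 2.83% of all genes. In GL vs SL 3 genes rose and 2 fell, beside 4.39% and 3.91% of all genes. None of these 7 calls stood in every fit without 1 array. Cyp27b1, the enzyme that makes active vitamin D, averaged 169 units in GL and 22.7 units in SL, where 1 of 4 arrays was above background. Calcineurin subunits differed in direction in GL, with Ppp3ca higher (0.61 ± 0.18, adjusted p = 0.0478) and Ppp3cb lower (-0.70 ± 0.19, adjusted p = 0.0269), and both calls were lost without GL 1 or GL 2 among other arrays. Rxra, the partner of the vitamin D receptor, and Ctnnb1, which relieves Tcf7l1 repression, were not called in any comparison.

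Among related transcription factors Sox7 was lower in LRC of both layers, as Sox9 was. Unlike Sox9 it was not highest in GL, at 1305 and 1465 units there, against 2032 and 1807 in SL non-LRC. Of 25 measured of 28 listed, Sox7 fell in BL LRC (-1.45 ± 0.18, limma adjusted p = 3.07e-04) and in SL LRC (-1.38 ± 0.23, adjusted p = 0.00198). Both calls stood in every fit without 1 array. Foxq1, a forkhead gene of the hair shaft, fell in SL LRC (-1.92 ± 0.40, limma adjusted p = 0.0106) and Sox6 rose (1.89 ± 0.46, adjusted p = 0.0252), each lost without SL non-LRC 2 and without either SL LRC array. In SL relative to BL 4 rose, beside 2.83% of all genes, and none fell. They were led by Nfatc2 (2.55 ± 0.36, limma adjusted p = 3.06e-04) and Foxn1, the nude gene (1.38 ± 0.20, adjusted p = 4.27e-04). In GL Sox13 rose by 2.87 ± 0.42 (adjusted p = 3.73e-04), averaging 1324 units against 190 in SL. Sox13, Nfatc2 and Foxc2 were the 3 higher in GL and Sox6 the 1 lower, beside 4.39% and 3.91% of all genes. Of these 4 calls that of Sox13 stood in every fit without 1 array.

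Of the other type I keratins, Krt10 alone was called higher in SL LRC, where Krt24 was higher too. The 2 genes differed in BL, where Krt24 overlapped between the label groups. Of 21 measured of 22 listed, Krt10, a suprabasal keratin, rose in SL LRC by 0.56 ± 0.14 (limma adjusted p = 0.0262) and in BL LRC by 0.52 ± 0.11 (adjusted p = 0.0214). The SL call was lost without any 1 of the 4 SL arrays and with the array set as a term (adjusted p = 0.151), and the BL call without BL LRC 2, BL LRC 3, BL non-LRC 1 or BL non-LRC 3. Krt17 fell in SL LRC (-1.08 ± 0.23, limma adjusted p = 0.0124), which was lost with the array set as a term (adjusted p = 0.261), without SL LRC 2 and without either SL non-LRC array. In SL vs BL 6 rose, beside 2.83% of all genes, and none fell. Among the 6 were Krt17 (1.20 ± 0.15, limma adjusted p = 1.2e-04), Krt25 (2.94 ± 0.40, adjusted p = 2.72e-04) and Krt16 (1.48 ± 0.24, adjusted p = 0.00121). In GL vs SL 5 rose and Krt15 fell, beside 4.39% and 3.91% of all genes.

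Markers of several cell types were lower in label-retaining cells, as were Sox9, Foxc1 and Vdr. Of 8 infundibulum and isthmus markers, 7 fell in BL LRC and 6 in SL LRC, and none rose. Over all genes 1.23% fell in BL LRC and 2.7% in SL LRC. Of these marker calls, 5 of 7 in BL and 3 of 6 in SL stood in every fit without 1 array. Their summed signal was 14569 to 18519 units in BL LRC, against 37622 to 54783 in BL non-LRC, and 44207 to 44617 in SL LRC, against 104402 to 107158 in SL non-LRC. Of 12 measured sebaceous gland markers, 8 fell in BL LRC and 5 in SL LRC. Their sum was 8046 to 11765 units in BL LRC, against 19999 to 60247 in BL non-LRC, and 13847 to 19130 in SL LRC, against 25236 to 42976 in SL non-LRC. Of the 5 sebaceous SL calls, 3 passed with the array set as a term and 1 stood in every fit without 1 array. Pparg, a defining sebocyte factor, was above background on no BL LRC array. In SL LRC 3 of 6 Langerhans and myeloid markers, 2 of 5 companion layer and outer root sheath markers and 2 of 8 melanocyte markers fell as well, and none fell in BL LRC. With the array set as a term, 1 Langerhans and myeloid marker, 1 companion layer and outer root sheath marker and 0 melanocyte markers passed. Csf1r, a receptor of myeloid cells, was the one of these 7 calls that stood in every fit without 1 array. In SL LRC its signal was under the floor on both arrays and at least 9.91-fold lower than in SL non-LRC (limma adjusted p = 0.00112), taking the higher of the floor and the measured signal on each dim array. The part of these cell types in the levels of the 7 genes was not tested.

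Of 5 measured cycling markers, 1 fell in BL LRC and 4 in SL LRC, beside 1.23% and 2.7% of all genes. Their summed signal was 2556 to 3302 units in SL LRC, against 9255 to 9957 in SL non-LRC. Of the 4 SL calls, 2 passed with the array set as a term and 2 stood in every fit without 1 array. Mki67, made in dividing cells, fell in SL LRC (-2.09 ± 0.25, limma adjusted p = 2.19e-04). Of 8 suprabasal markers, 2 rose in BL LRC, beside 0.308% of all genes, and 3 in SL LRC, beside 1.49%. None of these 5 calls stood in every fit without 1 array. Median centring left 0 called in BL and 1 in SL, and the array set as a term left 0 in SL. Ivl, at 535 and 352 units in SL LRC, against 1110 and 576 in SL non-LRC, and Dsc1, at 1486 and 1760 units in SL LRC, against 3173 and 2590 in SL non-LRC, lay lower in LRC without overlap and did not pass (limma adjusted p = 0.396 and 0.164). Their part in the members' levels was not tested.

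GL, where Sox9 and Lhx2 were highest, held markers of several other cells. Over all genes 4.39% rose in GL relative to SL. All 6 Langerhans and myeloid markers rose there, with a summed signal of 25979 to 55486 units in GL, against 3279 to 8029 units in SL non-LRC and 1018 to 1489 in SL LRC. Of 5 T cell markers 4 rose, with 7738 to 24059 units in GL, against 2275 to 4385 in SL non-LRC and 2184 to 2402 in SL LRC. The T cell sum of GL overlapped with 5041 to 7875 units in BL LRC and 3836 to 7841 in BL non-LRC. Thy1, the T cell marker not called here, measured 4382 to 7030 units in BL LRC and 3144 to 7216 in BL non-LRC. None of the other 4 exceeded 486 units on a BL array. Of 8 melanocyte markers 2 rose, Dct and Tyrp1, and the Tyrp1 call was lost in 5 of 12 fits without 1 array and with the array set as a term (limma adjusted p = 0.0855). Of 5 companion layer and outer root sheath markers 4 rose, with 51692 to 51831 units in GL, against 22783 to 27804 in SL non-LRC and 8594 to 9634 in SL LRC. Of 13 measured inner root sheath and hair shaft markers 4 rose, of which 2 passed with the array set as a term and 1 stood in every fit without 1 array, and no fibroblast or endothelial marker was called in any of the 4 comparisons. In SL vs BL 4 of the 5 companion layer and outer root sheath markers and 7 of the 13 inner root sheath and hair shaft markers rose, beside 2.83% of all genes. The part of these cells in the GL and SL levels of the 7 genes was not tested. The 3′ minus 5′ log2 difference, a measure of RNA quality, was 1.22 on GL 1 and 0.68 on GL 2 for Gapdh, and -0.071 and -0.049 for Actb, and its part in the GL levels was not tested.

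**Figure D4:**
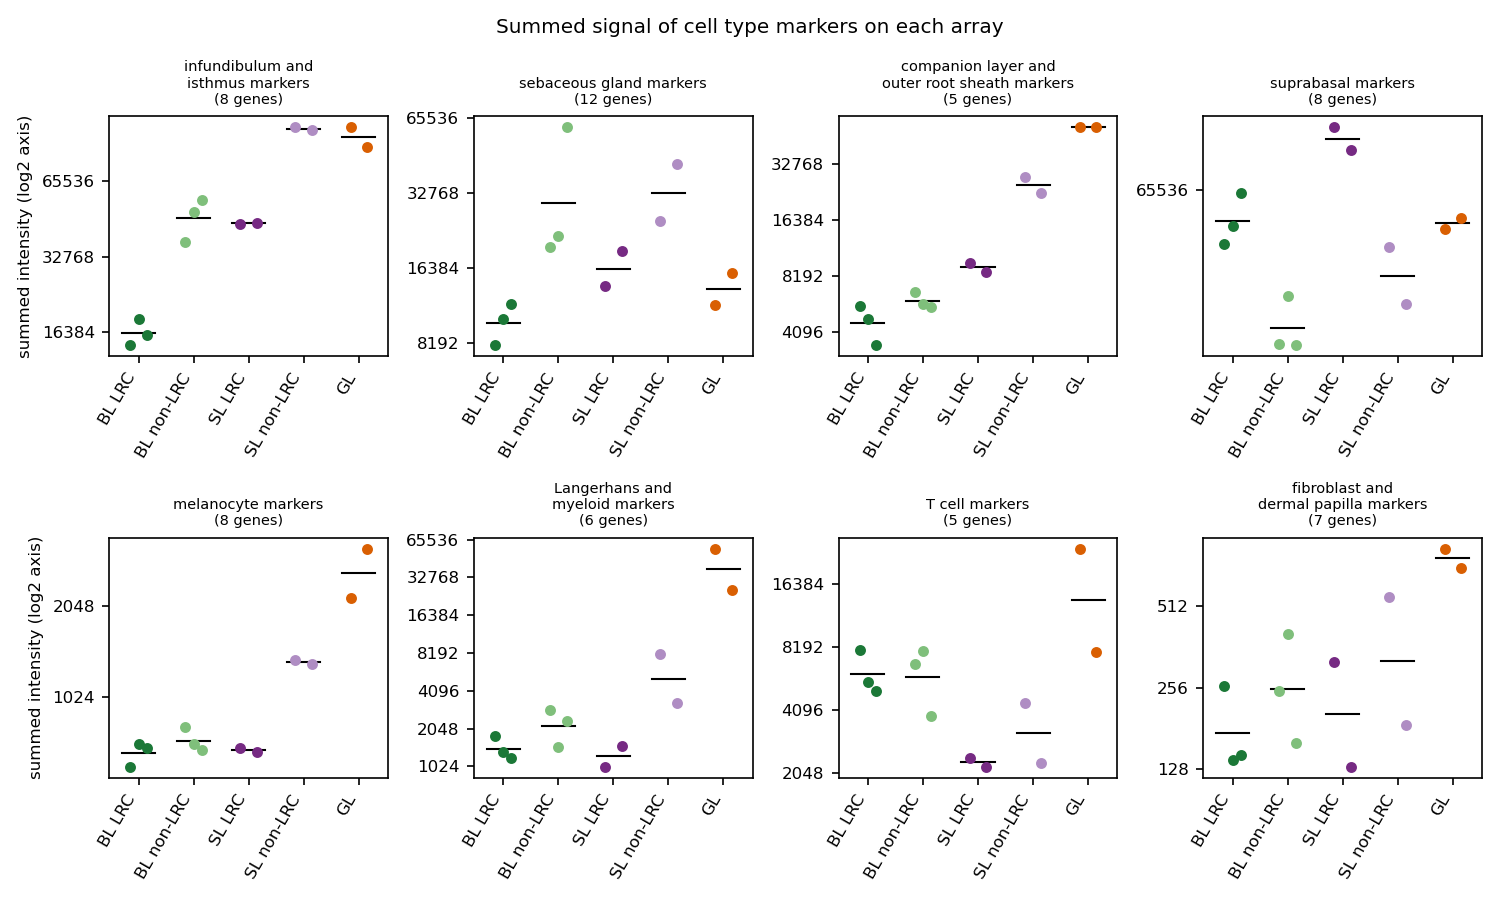
Summed intensity of 8 marker lists (log2 axes that differ between panels) on each array by sorted group, with a black line for the geometric mean. Infundibulum and isthmus markers lie lower in LRC than in non-LRC of each layer, as Sox9 does, and Langerhans and myeloid markers reach 25979 to 55486 units in GL, against at most 8029 units elsewhere.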

How the data were processed

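Per the labels and the series' design text, RNA of flow-sorted back skin cells was amplified with a NuGEN Ovation Pico kit. The authors deposited 1 linear intensity value per probe set and array, scaled to a 2% trimmed mean of 500.0 as recomputed here. Sorting gates and summarisation software were not given in the sources used. No label tells whether samples came from separate animals, so the p-values cover the spread among samples, which may be technical. In BL that spread also holds a contrast between the arrays numbered 1, which lacked signal of Y-linked genes, and the other BL arrays. The arrays numbered 1 are also the low-BioB arrays of BL, so animal and array set cannot be told apart there. Groups of 2 or 3 arrays limit the precision.

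Log2 was taken with nothing added, whereas log2 values had been assumed. Of 45101 probe sets, 34945 map to 1 gene by the platform annotation. The one of highest mean log2 stood for each of 18193 genes. limma 3.58.1 in R 4.3.3 fitted 5 group means over 12 arrays with a mean-variance trend, adjusting by Benjamini-Hochberg over all genes at 0.05. SL and BL are each the mean of their label groups. Errors are moderated SE. The fit was tested on simulated data. Figures used Python 3.11.15 and matplotlib 3.10.9.

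The members and lists were chosen with earlier results of these data known. The 7 members are always named. From each list up to 4 called genes of smallest p per comparison, the 4 other bulge genes of highest mean and 3 nearest profiles per member are named. Cd34 and Lgr5, the calcineurin subunits, Rxra, Ctnnb1, Lor, Flg, Ivl, Dsc1 and Csf1r were named afterwards. Same-numbered LRC and non-LRC samples deviated together in BL (r = 0.190, 0.109 and 0.112 over 13614 genes). BL differences were therefore also listed within pairs of equal number. In SL, with 2 pairs, r was 0.0088. The main model has no term for pairs, so its adjusted p-values leave the pairing out, and the replicate block is the alternative that holds one. The array sets were read from the data, and a term for them rests on the BL arrays alone. Alternatives were other normalisations, filters, probe set rules and models, a term for the array set, a replicate block and leaving out arrays. Scanner-level data were not used here.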

Additional observations from a re-analysis of the deposited data

Results flagged for a closer look

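Krt23, a type I keratin, had label differences of opposite sign in the 2 layers, none of which passed. On the log2 scale BL LRC minus BL non-LRC was 2.11 ± 0.65 (limma adjusted p = 0.152) and SL LRC minus SL non-LRC was -1.62 ± 0.79 (adjusted p = 0.319), with no overlap of arrays in either layer. The SL difference minus the BL difference was -3.73, which did not pass (adjusted p = 0.483). The BL value was 1.27 without BL non-LRC 1, where Krt23 measured 8.62 units, below that array's floor of 25.6, and the SL value was -0.75 without SL non-LRC 1, where it measured 911 units.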

How the results depend on the processing

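No called result reversed, while the BL differences near 0 of Lhx2 and Krt24 turned to -0.05 and -0.14 with median centring. Genes called in BL numbered 279, against 72 without the variance trend, 183 with the compared groups alone, 446 with median centring, 429 with a replicate block and 174 without the pair BL LRC 1 and BL non-LRC 1. Leaving out 1 array gave 131 to 288. In SL 763 were called, 320 with the array set as a term and 150 without the trend, and 209 to 862 without 1 array. In SL vs BL 915 were called, 374 without the trend and 529 to 985 without 1 array, and in GL vs SL 1510, 713 without the trend and 575 to 1617 without 1 array. The interaction gave 0 calls (1291 genes at an unadjusted p under 0.05), but 15 with the replicate block, 5 with the array set, 2 with the mean of probe sets, 2 without the trend and 0 to 6 without 1 array. Of Nfatc1 and Tcf7l1, 1 was called in SL, and 0 with the array set, without the trend and with the compared groups alone. In SL vs BL 1 was called, and 0 with the mean of probe sets, without the trend, with quantile normalisation and without BL LRC 1 and BL non-LRC 1. Leaving out 1 array gave 0 to 1 in both and in GL vs SL. The replicate block changed no call of these 2 genes. Median centring moved the median of all genes to -0.19 in BL, -0.14 in SL, 0.09 in SL vs BL and -0.17 in GL vs SL, and the share of calls that were lower to 95.1% in BL (79.9% before), 81.8% in SL (64.5%), 30.1% in SL vs BL (43.7%) and just under 60% in GL vs SL (47.1%). The causes were not tested.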
